A study of Drosophila melanogaster with 10 samples.

Results

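The contacts described here join pairs of 10 kb bins in the pericentromeric heterochromatin of the left arm of chromosome 2 (chr2L) whose starts lie 200 kb or more apart. A pair of different chr2L bins was taken, once, when both bins lay in the heterochromatic block, whose first bin starts at 22006057 in the dm3 assembly. The 4 bins that hold the light gene, which lie between the bins starting at 22786057 and 22836057, were left out. The rule used position alone, and it gave 2757 pairs of the 40796 same-arm bin pairs in the deposited tables. These pairs join 93 bins with starts from 22006057 to 22966057, and they span distances of 200 to 960 kb. A score was present in all 9 libraries for 2545 pairs, in some libraries for 93 pairs, and in no library for 119 pairs.

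The libraries came from S2 cells, an established Drosophila melanogaster line of embryonic origin. There were 3 WT libraries without RNAi, 2 libraries of mock RNAi, 2 of HP1a RNAi and 2 of Su(var)3-9 RNAi. The RNAi cells were transfected with double-stranded RNA and harvested after 3 days. The mock double-stranded RNA was directed against GFP, and all groups share the line and its growth medium. A 5C library holds no expression data, so the extent of each depletion could not be checked in these files. An additional S2 control library carried no processed file and was not analysed here.

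Pericentromeric heterochromatin is rich in repeats and in nucleosomes methylated on lysine 9 of histone H3. Su(var)3-9 is a histone methyltransferase that places this methylation. HP1a binds the methylated histone, can dimerize and recruits other proteins, and is used as a mark of constitutive heterochromatin. Genes that reside in fly heterochromatin, such as light, depend on this environment for their normal expression.

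A 5C score derives from ligated primer pairs, which can form only where their EcoRI fragments were themselves joined in the 3C library. The 30 genomic bases of one primer of each kind are shown, from the lowest-numbered forward and the highest-numbered reverse fragment of chr2L, because each score starts from such a junction. Capitals mark the bases of the EcoRI site that are left at the fragment end. Without a dm3 genome the primers were not placed in bins.
Forward primer, fragment 2: ttcaattactgcaaaatgtcctaaaatGAA
Reverse primer, fragment 321: TTCaaagttgctatcctaagaggacccgat

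The deposited score is a log2 ratio of observed to expected contacts, so 0 is the expectation at that distance and each unit is a factor of 2. The files hold no counts, and no counting interval can be given. By the read statistics of the study, every depleted library had fewer reads with the EcoRI site than every WT and mock library, so sequencing depth and depletion cannot be told apart in any comparison below. The level of a whole arm also moved between libraries. The chr2L median was −0.50, −0.07 and −0.37 in the WT libraries, −0.90 and −0.60 after mock RNAi, −0.56 and −0.28 after HP1a RNAi, and −0.49 and −2.47 after Su(var)3-9 RNAi. The library labelled Su(var)3-9 RNAi replicate 2 stood apart, and 89.4% of its chr3L pairs at 200 kb and over had no score. Scores are therefore also given after the chr2L median of the library was subtracted, and are then called centred. The authors smoothed the binned contacts, and neighbouring bins were often alike: 20.5% to 22.4% of the scores were identical in the next bin. The bins from 22736057 to 22776057 carried the same scores throughout. So did the neighbours 22256057 and 22266057, 22356057 and 22366057, 22406057 and 22416057, and 22696057 and 22706057. Pairs are thus not independent measurements, and runs and counts of bins below include such repeats. What made these bins identical was not tested.

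The level of the long-range contacts was first compared between groups, which asks whether loss of a heterochromatin protein moves contacts across the whole block. The median deposited score of the long-range pairs was −0.54, −0.14 and −0.45 in WT, −0.996 and −0.71 after mock RNAi, −0.60 and −0.28 after HP1a RNAi, and −0.46 and −2.44 after Su(var)3-9 RNAi. Long-range contacts were thus below expectation at the median of every library, and the groups overlapped. HP1a RNAi exceeded mock RNAi by 0.42, with both libraries above both mock libraries (0.26 without HP1a RNAi replicate 2), but an exact permutation test of 2 libraries against 2 cannot give a p below 0.333. All such tests here were two-sided. Su(var)3-9 RNAi minus mock RNAi was −0.59 (exact permutation p = 1), and without replicate 2 it was 0.40, so the direction rested on that library. Between the 4 depleted libraries and the 5 controls the difference was −0.38 (exact permutation p = 0.619), and it was 0.12 without Su(var)3-9 RNAi replicate 2.

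The share of long-range pairs above expectation varied widely within the groups. It was 3.32%, 28.7% and 7.0% in WT, 0.532% and 2.14% after mock RNAi, 9.13% and 24.7% after HP1a RNAi, and 22.6% and 0% after Su(var)3-9 RNAi. The depleted and control libraries overlapped (difference 5.78 percentage points, two-sided exact permutation p = 0.556, and 2.26 to 10.9 with 1 library left out). On centred scores, where library levels are removed, they did not overlap. The share was then 37.9% to 42.0% in the 5 controls, 45.9% and 47.5% after HP1a RNAi, and 53.0% and 50.8% after Su(var)3-9 RNAi, a difference of 10.1 points (exact permutation p = 0.0159, unadjusted).

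Relative to their own arm, the long-range pairs of the depleted libraries were higher by a small margin that did not pass after adjustment. The centred median was −0.038, −0.067 and −0.077 in WT, −0.092 and −0.11 after mock RNAi, −0.039 and 0.00 after HP1a RNAi, and 0.032 and 0.028 after Su(var)3-9 RNAi. The depleted libraries stood 0.083 above the controls (exact permutation p = 0.0317, adjusted over the 4 comparisons of this measure to 0.127), and the lowest depleted library overlapped the highest WT library. With the light bins kept the difference was 0.048 (exact permutation p = 0.0317). Against mock RNAi alone it was 0.083 for HP1a RNAi and 0.13 for Su(var)3-9 RNAi, each with the smallest exact p of 0.333. Leaving out any 1 of 7 libraries took the p of the comparison of all depleted libraries to between 0.0571 and 0.0714, and without WT replicate 1 or HP1a RNAi replicate 1 it was 0.0286 or 0.0357.

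The contrast between far and near contacts of the same bins separated the groups without overlap. The median at 200 kb and over minus the median under 200 kb was −0.25, −0.31 and −0.28 in WT and −0.26 and −0.30 after mock RNAi. It reached −0.20 and −0.15 after HP1a RNAi, and 0.025 and −0.071 after Su(var)3-9 RNAi. In the controls, a long-range pair therefore scored about 0.28 below a short-range pair after the correction for expected distance decay, while in the Su(var)3-9 RNAi libraries the medians differed by less than 0.1. With means in place of medians, those libraries had −0.047 and −0.20, still above the controls. The depleted libraries averaged −0.098 ± 0.097 (SD, n = 4) and the controls −0.28 ± 0.028 (SD, n = 5), a difference of 0.18. The two-sided exact permutation p was 0.0159, the smallest that 4 against 5 libraries can give, or 0.0635 adjusted over the 4 comparisons, which does not pass 0.05. Leaving out single libraries gave differences of 0.14 to 0.21, with exact permutation p of 0.0286 to 0.0357. As the groups do not overlap, each such p was bound to be the smallest that the remaining libraries can give. HP1a RNAi exceeded mock RNAi by 0.11 and Su(var)3-9 RNAi exceeded it by 0.26 (exact permutation p = 0.333 for each), and mock RNAi differed from WT by −0.003 (p = 1). The depletions differed from each other by −0.15 (HP1a RNAi minus Su(var)3-9 RNAi, exact permutation p = 0.333). The methods of the study call the S2 preparations biological replicates and the RNAi experiments duplicates. As nothing states that the libraries used here came from separate cultures, the p-values measure only the spread between them, which may be technical.

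**Figure D1:**
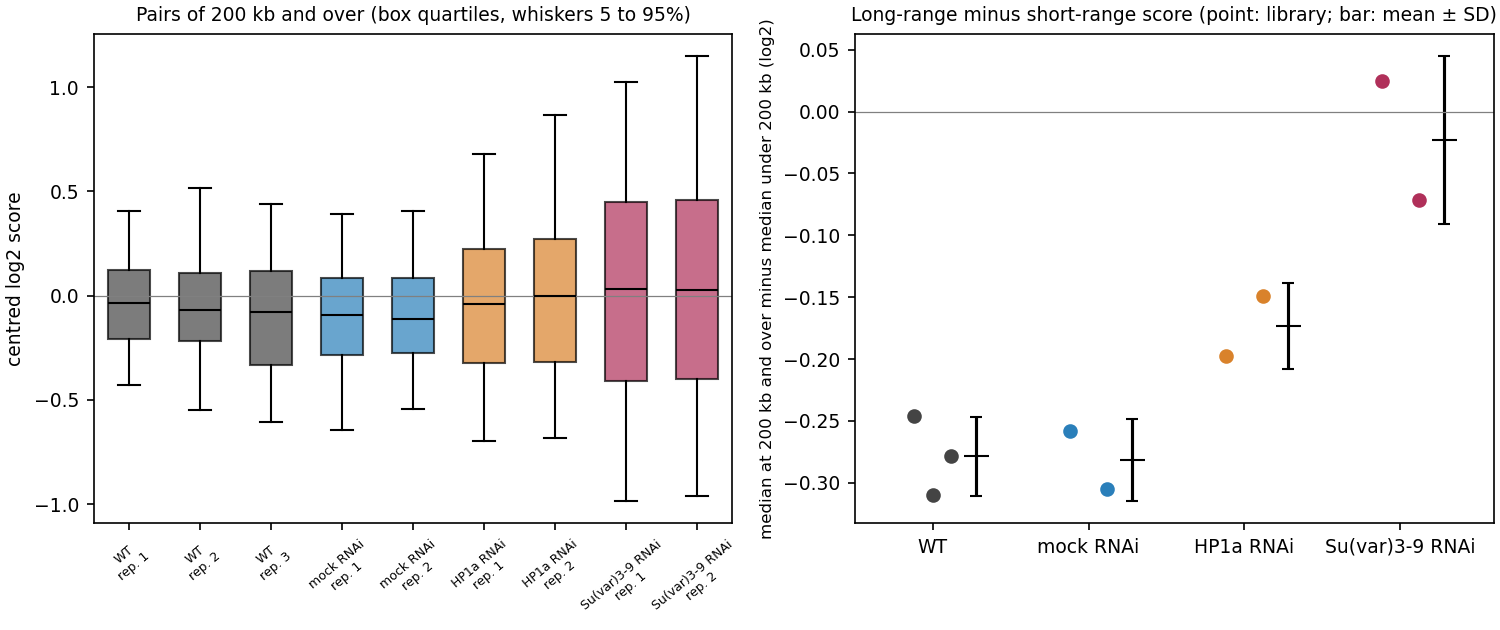
Left, centred log2 scores of the pairs of 200 kb and over in each library, with boxes at the quartiles and whiskers from the 5th to the 95th percentile. Right, the median log2 score at 200 kb and over minus that under 200 kb, with 1 point per library and bars of mean ± SD. The boxes are wider in the depleted libraries, and all 4 depleted libraries lie above the 5 controls on the right.

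The same contrast was taken on other arms to see how far it is shared. On chr3L, leaving out Su(var)3-9 RNAi replicate 2 with its missing scores, the depleted minus control difference was −0.002 (exact permutation p = 0.929, 3 against 5). The chr2L contrast minus the chr3L contrast differed by 0.17 between depleted and control libraries (p = 0.0714 in an exact permutation test), so a difference between the arms did not pass the threshold. On chrX, with bins of 5 kb, the depleted libraries differed by 0.066 (exact permutation p = 0.238), and the chr2L minus chrX contrast by 0.12 (p = 0.127). The difference between depleted and control libraries was therefore not shown to be particular to chr2L.

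By distance, the groups parted at the far end of the arm. From 200 to 300 kb, the centred median lay between −0.061 and 0.057 in all 9 libraries, with 655 pairs scored in every library. From 800 to 900 kb, with 93 such pairs, it was −0.075, −0.085 and −0.28 in WT, −0.34 and −0.23 after mock RNAi, 0.078 and 0.15 after HP1a RNAi, and 0.32 and 0.22 after Su(var)3-9 RNAi. There all 4 depleted libraries were above 0 and all 5 controls below it. Between 400 and 600 kb the groups were mixed, and HP1a RNAi reached its lowest class there, with −0.21 and −0.18 at 500 to 600 kb. The class from 900 kb holds 10 pairs scored in every library, and its Su(var)3-9 RNAi medians of 0.48 and 0.48 rest on 10 to 17 pairs in each library. Far pairs join the ends of the block only, so a distance class and a place along the arm cannot be told apart here.

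**Figure D2:**
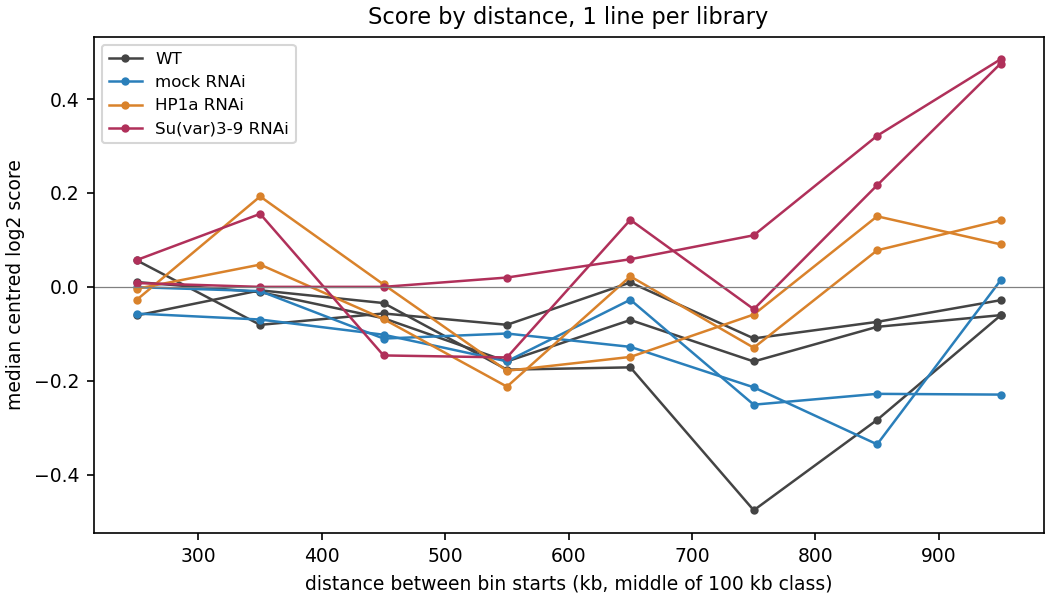
Median centred log2 score of long-range pairs by 100 kb distance class (kb between bin starts), with 1 line per library coloured by group. The lines overlap at 200 to 300 kb, while at 800 to 900 kb the depleted libraries lie above 0 and the WT and mock RNAi libraries below it.

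The scores were also more spread in the depletions. The SD over long-range pairs was 0.27, 0.29 and 0.33 in WT and 0.31 and 0.30 after mock RNAi, against 0.44 and 0.46 after HP1a RNAi and 0.64 and 0.65 after Su(var)3-9 RNAi. Pairs more than 1 above the arm median numbered 11, 2 and 6 in WT and 12 and 18 after mock RNAi. They numbered 46 and 54 after HP1a RNAi, and 142 and 196 after Su(var)3-9 RNAi. This spread was noticed after the values were seen and was not tested. It was as marked on chr3L, where the long-range SD was 0.30 to 0.36 in the controls, 0.55 and 0.54 after HP1a RNAi and 0.73 after Su(var)3-9 RNAi replicate 1. The lower depth of the depleted libraries moved with it, and its part was not tested.

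Part of the spread lay in whole bins rather than in single pairs. In each library, 1 additive value per bin was fitted jointly to the long-range pairs by least squares. The fit accounted for 33.9% to 54.4% of the variance over these pairs in the controls, 51.5% and 55.9% after HP1a RNAi, and 62.7% and 71.4% after Su(var)3-9 RNAi. The replicates of a depletion were also alike. Over the 2545 complete pairs, Pearson's r was 0.66 between the HP1a RNAi libraries, 0.68 between the Su(var)3-9 RNAi libraries and 0.49 to 0.69 between the depletions. It was 0.50 to 0.57 within WT, 0.59 within mock RNAi, and 0.017 to 0.41 between a depleted and a control library. These correlations are across smoothed, overlapping pairs and are given as a description.

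**Figure D3:**
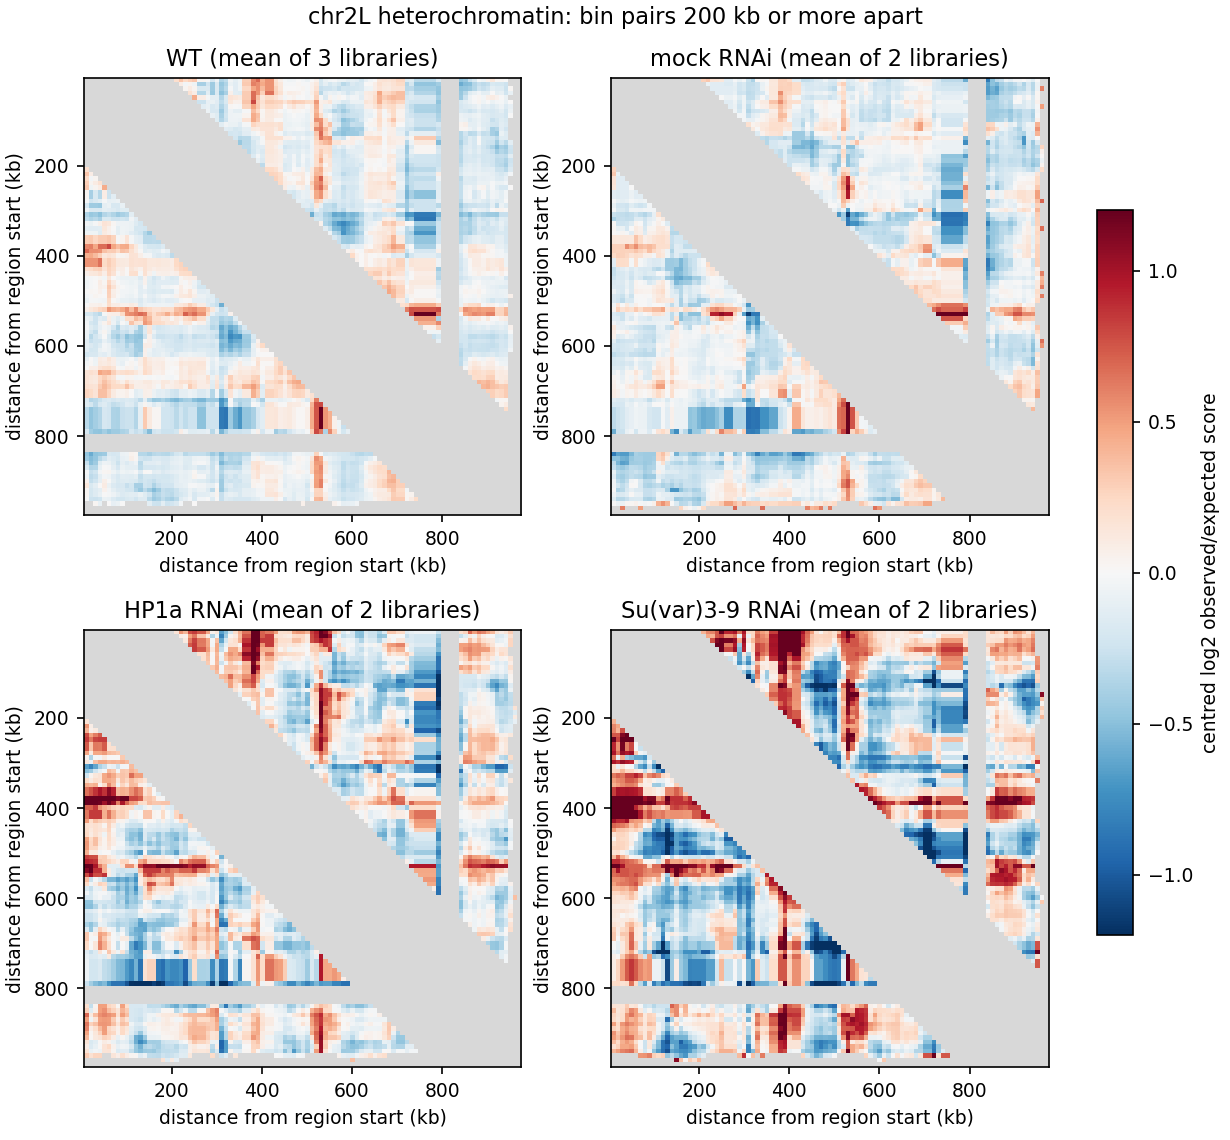
Centred log2 observed over expected scores of bin pairs 200 kb or more apart, averaged over the libraries of each group (kb from the region start on both axes, red above and blue below the arm median, values beyond the scale in its end colours, and grey for pairs under 200 kb, left-out bins and pairs with no mean). WT and mock RNAi share a red stripe near 525 kb, and both depletions show wider red and blue bands.

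Along the arm, the profile of the untreated cells was led by one place. Each bin was given the mean centred score with all its partners at 200 kb and over. The bin chr2L:22526057-22536057, which lies between the bins of CG17490 and light, had 0.59, 0.29 and 0.32 in WT and 0.29 and 0.20 after mock RNAi, the highest WT mean of the block at 0.40, followed by its distal neighbour at 0.39. The order rested on WT replicate 1: the neighbour, at 0.44, 0.34 and 0.38 in WT and 0.25 and 0.43 after mock RNAi, was the higher of both in WT replicates 2 and 3 and in mock RNAi replicate 2. It had 0.28 and 0.31 after HP1a RNAi and 0.21 and 0.38 after Su(var)3-9 RNAi, overlapping the controls. In the Release 6 order of RefSeq, this interval holds CG17493, Slmap, CG40006, CG40439 and CG17715, and the bin could not be assigned to one of them. Among bins with a value in every library, the next WT peaks were chr2L:22686057-22696057, at 0.18, 0.17 and 0.24 and at −0.14 and −0.094 after Su(var)3-9 RNAi, and chr2L:22416057-22426057, at 0.099, 0.28 and 0.072. The latter overlaps RpL5, which encodes a protein of the large ribosomal subunit, but shares its scores with its distal neighbour, where no gene was placed. The lowest WT mean was at chr2L:22306057-22316057, in Marf1, which encodes an RNA-binding protein, with −0.34, −0.42 and −0.55 in WT and −0.39 and −0.37 after mock RNAi. That bin was among the 5 lowest in every library. The other WT minima were chr2L:22576057-22586057, at −0.23, −0.37 and −0.31, and chr2L:22836057-22846057, just past the left-out light bins, at −0.19, −0.15 and −0.41.

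The strongest single contacts of WT cells included the same peak bin. The pair of chr2L:22526057-22536057 with chr2L:22736057-22746057 had centred scores of 1.79, 0.63 and 1.39 in WT, 1.60 and 1.06 after mock RNAi, 0.80 and 1.13 after HP1a RNAi, and 1.45 and 1.39 after Su(var)3-9 RNAi. It was high in all 9 libraries, and its scores were repeated in each bin through chr2L:22776057-22786057. The pair of chr2L:22226057-22236057 with the same peak bin had 0.79, 0.67 and 0.70 in WT, and 0.76 to 1.32 in the RNAi libraries. The pair of chr2L:22056057-22066057 with chr2L:22376057-22386057, 320 kb apart, had 0.42, 1.02 and 0.94 in WT and 0.99 and 0.13 after mock RNAi. It had 1.51 and 2.00 after HP1a RNAi and 2.21 and 2.26 after Su(var)3-9 RNAi, above every control library. The lowest WT pair joined Marf1, at chr2L:22316057-22326057, with the identical bins from 22736057 to 22776057, at −0.70, −0.61 and −1.31 in WT. The Su(var)3-9 RNAi libraries disagreed on it, with 0.072 and −1.45.

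In the depletions the WT peak remained high and other bins stood out from the controls. Of 91 bins with a value in every library, 29 lay above and 15 below all 5 controls in both HP1a RNAi libraries. Over the bins of all arms, 20.1% lay above and 18.2% below in the same way. In both Su(var)3-9 RNAi libraries 32 bins lay above and 20 below, where the shares over all arms were 30.6% and 19.3%. In all 4 depleted libraries 23 bins lay above and 14 below, against 13.6% and 10.5% over all arms. The chr2L heterochromatin shares of bins above, 31.9% after HP1a RNAi and 35.2% after Su(var)3-9 RNAi, were higher than these by different margins, and the shares below, 16.5% and 22.0%, were near them. Neighbouring bins share scores, so the bins are not independent, and on deposited scores 0 bins lay above all controls in either depletion.

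The bins above the controls in all 4 depleted libraries included 4 runs of 3 or more neighbours, called blocks here. The distal block ran over 7 bins, chr2L:22006057-22076057, with means of 0.30 above mock RNAi in HP1a RNAi and 0.59 above it in Su(var)3-9 RNAi. Its bin chr2L:22026057-22036057 had −0.040, −0.095 and −0.12 in WT, −0.068 and −0.23 after mock RNAi, 0.23 and 0.20 after HP1a RNAi, and 0.60 and 0.59 after Su(var)3-9 RNAi. The 4 depleted values stood clear of the controls, and those of Su(var)3-9 RNAi stood above those of HP1a RNAi.

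The second block lay around the interval from Marf1 to RpL5, in which the RefSeq order places no protein-coding gene. It ran over chr2L:22356057-22396057 after HP1a RNAi, 0.40 above mock RNAi, and over chr2L:22326057-22426057 after Su(var)3-9 RNAi, 0.62 above it. At its peak, chr2L:22386057-22396057, the mean score was 0.0036, 0.22 and 0.11 in WT, 0.024 and 0.029 after mock RNAi, 0.48 and 0.56 after HP1a RNAi, and 1.23 and 1.17 after Su(var)3-9 RNAi. An inconspicuous bin in the controls was thus the highest of all long-range bins in both Su(var)3-9 RNAi libraries, and the difference from mock RNAi, 1.17, was the largest of any bin.

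The bin chr2L:22416057-22426057, which overlaps RpL5, had 0.73 and 0.63 after Su(var)3-9 RNAi, while its HP1a RNAi values, 0.071 and 0.37, were not both above the WT libraries. Its scores were identical to those of chr2L:22406057-22416057, where no gene was placed. The next bin, chr2L:22426057-22436057, also overlaps RpL5 and had 0.097 and 0.16 after Su(var)3-9 RNAi. These values overlapped WT, at 0.12, 0.23 and 0.017, and lay above mock RNAi, at −0.17 and −0.12. Bins that share scores cannot place the high value on RpL5 or beside it.

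The third block held the WT peak. At chr2L:22526057-22536057 the mean was 0.71 and 0.81 after HP1a RNAi and 0.86 and 0.97 after Su(var)3-9 RNAi, above the 0.59 of the highest control library. The block covered chr2L:22526057-22556057 after HP1a RNAi and reached 22576057 after Su(var)3-9 RNAi, with means of 0.41 and 0.46 above mock RNAi. The fourth lay past the light bins and held concertina (cta), which encodes a G protein alpha subunit needed for cell shape change in the gastrula. It covered chr2L:22846057-22906057 after HP1a RNAi and chr2L:22836057-22906057 after Su(var)3-9 RNAi, 0.30 and 0.41 above mock RNAi. Its bin chr2L:22856057-22866057, beside cta, had 0.015, −0.027 and −0.31 in WT, −0.28 and −0.29 after mock RNAi, 0.22 and 0.20 after HP1a RNAi, and 0.37 and 0.30 after Su(var)3-9 RNAi. The cta bin chr2L:22876057-22886057 had 0.074, 0.016 and −0.19 in WT, −0.15 and −0.13 after mock RNAi, 0.18 and 0.18 after HP1a RNAi, and 0.31 and 0.29 after Su(var)3-9 RNAi.

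Between these blocks lay bins below the controls. From CG17490 towards light, the bins of chr2L:22456057-22506057 differed from mock RNAi by −0.18 after HP1a RNAi, and those of chr2L:22446057-22516057 by −0.48 after Su(var)3-9 RNAi. The bin chr2L:22496057-22506057 had −0.059, −0.051 and −0.085 in WT, −0.052 and −0.084 after mock RNAi, −0.16 and −0.32 after HP1a RNAi, and −0.75 and −0.64 after Su(var)3-9 RNAi. In chr2L:22466057-22476057 the HP1a RNAi values were −0.19 and −0.26 and those of Su(var)3-9 RNAi −0.59 and −0.58, against −0.023 to 0.029 in the controls. The bin starting at chr2L:22786057, next to the left-out light bins, had −0.80 and −0.68 after HP1a RNAi and −0.27 and −0.77 after Su(var)3-9 RNAi, against −0.11 to −0.25 in the controls. The bin chr2L:22116057-22126057 had −0.30 and −0.28 after HP1a RNAi and −0.27 and −0.47 after Su(var)3-9 RNAi, against −0.11 to 0.086 in the controls. It lies distal to Clamp, which encodes a zinc finger protein that binds GA repeats. Neither bin that overlaps Clamp was below all controls. The bin chr2L:22156057-22166057 lay narrowly above all controls after HP1a RNAi, at −0.067 and −0.048 against at most −0.083. It overlapped them after Su(var)3-9 RNAi, at −0.22 and −0.14. The other, chr2L:22166057-22176057, had −0.27 and −0.12 after HP1a RNAi and −0.35 and −0.16 after Su(var)3-9 RNAi. Both depletions overlapped its control values of −0.18 to −0.068.

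**Figure D4:**
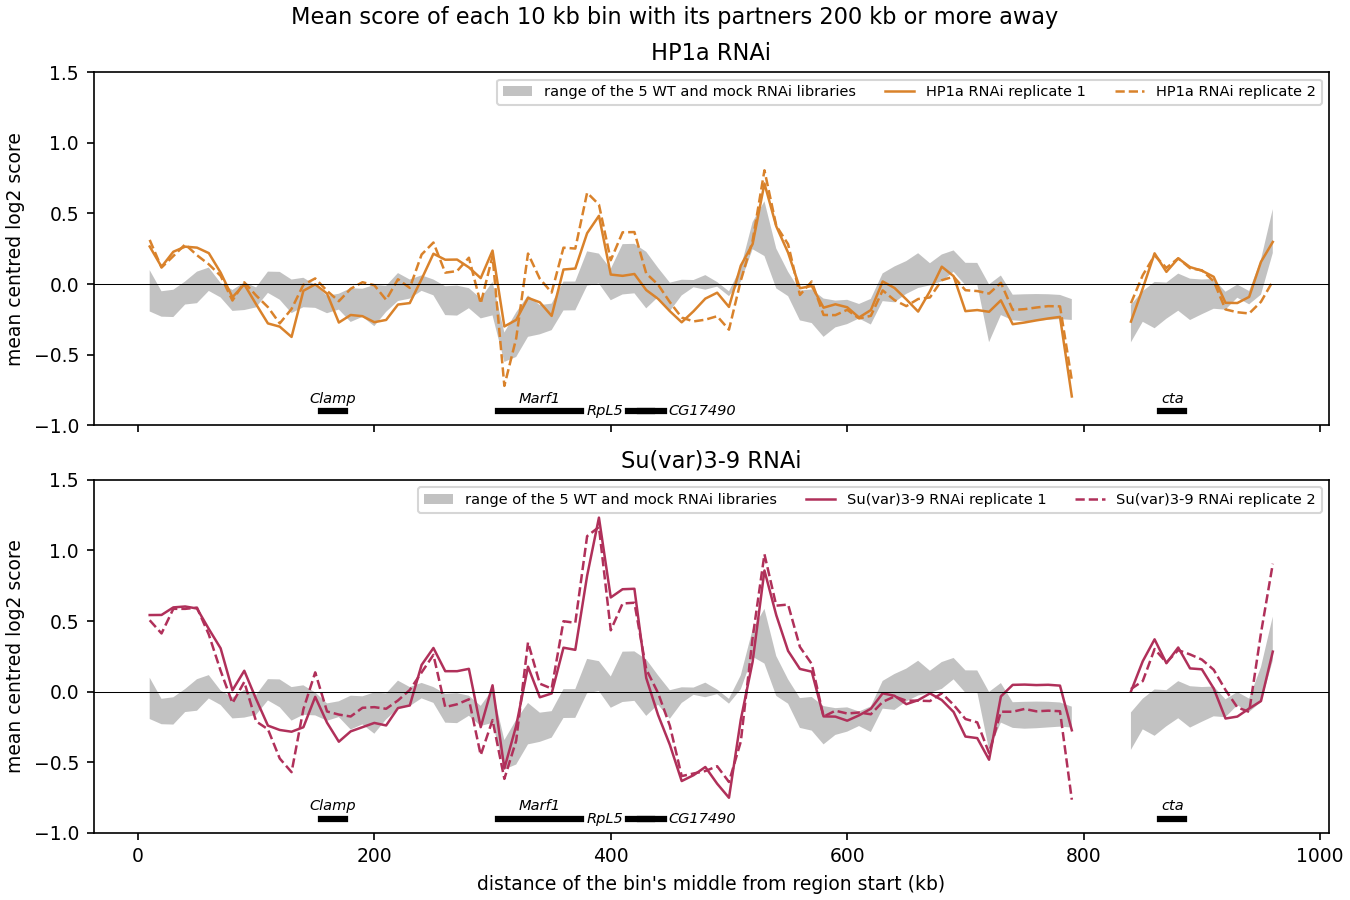
Mean centred log2 score of each 10 kb bin with its partners 200 kb or more away, against distance from the region start (kb), in HP1a RNAi (top) and Su(var)3-9 RNAi (bottom). The grey band is the range of the 5 WT and mock RNAi libraries, coloured lines are single libraries, black bars mark bins with named genes, and the gap is the left-out light locus. Both depletions lie above the band at the distal end, near 390 kb, near 525 kb and near 865 kb.

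The bins were then grouped into 100 kb segments, numbered 1 at the distal to 10 at the proximal end. Of 36 segment pairs, 9 lay above and 8 below all controls in both HP1a RNAi libraries, where 21.1% and 16.9% of the segment pairs of all arms did so. In Su(var)3-9 RNAi 15 lay above and 8 below, where the shares over all arms were 30.7% and 16.9%. In 2 of the 36 segment pairs the depletions lay beyond mock RNAi in opposite directions, where 3.61% of the segment pairs of all arms did so. In both of these, HP1a RNAi overlapped the WT libraries.

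The 4 blocks lie mainly in segments 1, 4, 6 and 9, chosen here after the values were seen. Of the 6 pairings of these segments, 4 lay above all controls after HP1a RNAi, with segments 4 and 6 and segments 4 and 9 overlapping them, and 6 after Su(var)3-9 RNAi. The blocks were picked from means that include these same pairs, so this count describes them and adds no separate support. The contact of segment 1, the distal end, with segment 4, starting at 22300975, averaged 0.043, 0.22 and −0.0014 in WT and 0.15 and −0.047 after mock RNAi. It averaged 0.51 and 0.47 after HP1a RNAi and 0.67 and 0.79 after Su(var)3-9 RNAi.

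Segments 1 and 9, near the ends of the block, averaged −0.18, −0.083 and −0.29 in WT and −0.35 and −0.42 after mock RNAi, below the arm median in each. In HP1a RNAi they averaged 0.31 and 0.30 and in Su(var)3-9 RNAi 0.42 and 0.13, above it in each. The contact of segments 6 and 9 was 0.21 and 0.33 after HP1a RNAi and 0.47 and 0.68 after Su(var)3-9 RNAi, against at most 0.090 in a control. In both of these segment pairs the 4 depleted libraries lay above all 5 controls.

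The opposite held for the strongest segment contact of the controls. Segments 6 and 8, starting at 22500975 and 22700975, averaged 0.63, 0.29 and 0.51 in WT and 0.48 and 0.67 after mock RNAi. They averaged 0.11 and 0.0087 after HP1a RNAi and −0.21 and 0.13 after Su(var)3-9 RNAi, and the differences from mock RNAi were −0.51 and −0.61. The peak pair within it stayed high in all libraries, as given above, while pairs around it did not. Segments 2 and 8 averaged −0.63 and −0.39 after HP1a RNAi and −0.60 and −0.64 after Su(var)3-9 RNAi, against −0.24 at the lowest in a control.

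**Figure D5:**
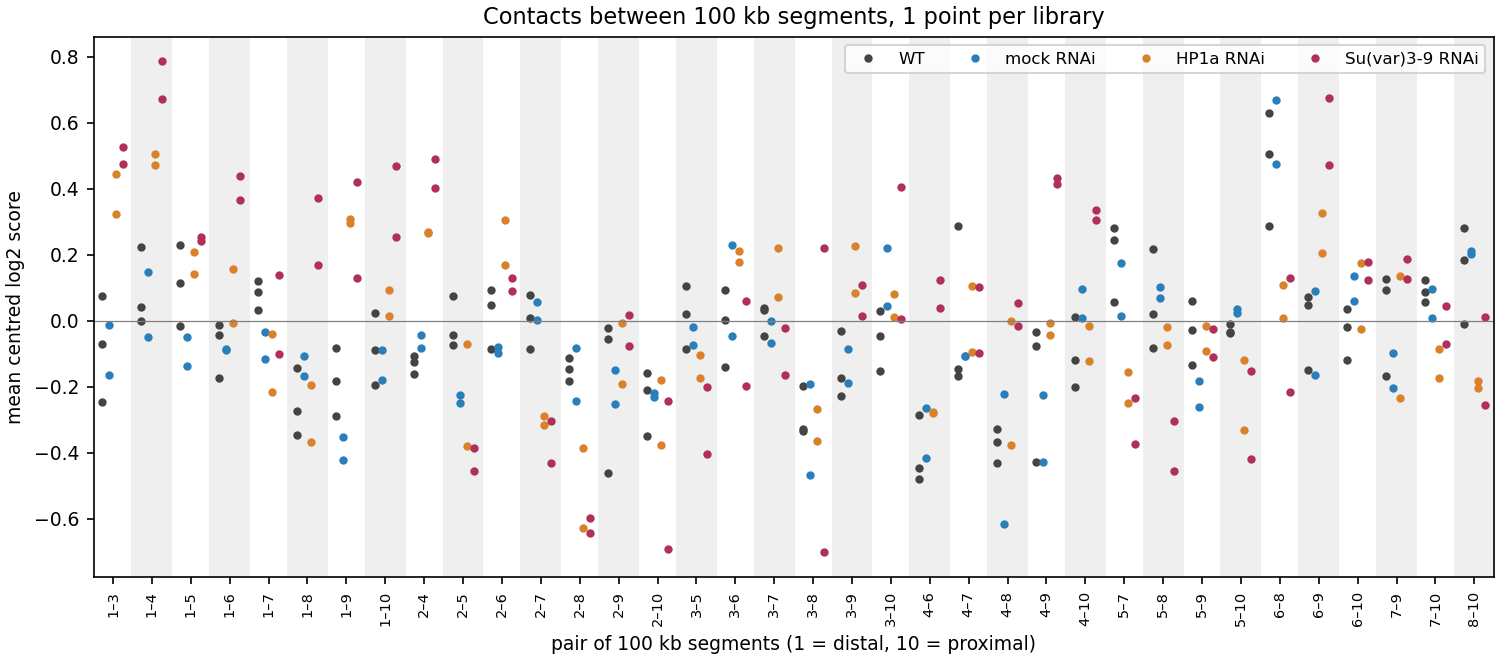
Mean centred log2 score between pairs of 100 kb segments of the chr2L heterochromatin, numbered from distal to proximal, with 1 point per library coloured by group. The depleted libraries lie above the controls for segments 1 and 4, 1 and 9, and 6 and 9, and below them for segments 6 and 8 and 2 and 8.

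Single bin pairs were then tested with limma over all 23426 same-arm pairs scored in every library. On deposited scores, 0 of 2545 long-range pairs passed an adjusted p of 0.05 between HP1a RNAi and mock RNAi, as did 0% of all pairs, and 63 had an unadjusted p under 0.05. Between Su(var)3-9 RNAi and mock RNAi 6 pairs fell and 0 rose, where 1.43% of all pairs fell and 0.162% rose. For both depletions against WT and mock RNAi 3 fell and 0 rose, where 0.73% of all pairs fell and 0.201% rose. Single libraries moved these counts: without Su(var)3-9 RNAi replicate 2 they were 83, 472 and 424, without its replicate 1 they were 72, 2057 and 1631, and without any 1 other library all were 0.

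On centred scores, HP1a RNAi had 4 long-range pairs higher and 1 lower than mock RNAi, where 0.209% of all pairs rose and 0.32% fell. Su(var)3-9 RNAi had 374 higher and 171 lower, or 14.7% and 6.72% of the pairs tested, where 8.9% of all pairs rose and 10.4% fell. For both depletions together 396 rose and 228 fell, or 15.6% and 8.96%, where 9.19% of all pairs rose and 11.2% fell. The share called in either direction in Su(var)3-9 RNAi, 21.4%, was close to the 19.3% of all pairs. HP1a RNAi directly against Su(var)3-9 RNAi had 9 pairs higher and 45 lower, where 1.37% of all pairs were higher and 1.03% lower. The share in either direction, 2.12%, was below the 2.4% of all pairs. The median difference over the long-range pairs was 0.16 after Su(var)3-9 RNAi, against −0.005 over all pairs. The counts depended on the scaling: after quantile normalization, which gives all libraries the same spread, 0 pairs passed in Su(var)3-9 RNAi and 22 in both depletions together. Leaving out mock RNAi replicate 1 or 2 gave counts of 122 and 36 after Su(var)3-9 RNAi. In both depletions together it gave 282 and 192, and leaving out WT replicate 1 or HP1a RNAi replicate 2 gave 387 and 386. The HP1a RNAi count was 0 to 2 without any 1 WT, mock RNAi or HP1a RNAi library, and 56 and 66 without Su(var)3-9 RNAi replicate 1 and 2.

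The bins of the profile were chosen from the means of the same pairs, so the counts of called pairs at them describe these bins and add no separate support. In Su(var)3-9 RNAi against mock RNAi on centred scores, 38 of the 51 long-range pairs of chr2L:22386057-22396057 were higher and 0 lower. Of the 68 of chr2L:22026057-22036057, 38 were higher and 0 lower. Of the 51 of chr2L:22456057-22466057, 23 were lower and 0 higher. Pairs with an end in segment 4 counted 146 higher and 0 lower among 510, and those with an end in segment 5 counted 57 higher and 112 lower among 511. Over all pairs of this comparison, 8.9% were higher and 10.4% lower. In HP1a RNAi against mock RNAi, these bins and segments had 0 pairs higher and 0 lower.

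Among the pairs with the smallest p, chr2L:22006057-22016057 with chr2L:22386057-22396057, 380 kb apart, joined the distal block to the peak between Marf1 and RpL5. Its centred score was 0.60, 0.63 and 0.82 in WT, 0.41 and 0.14 after mock RNAi, 1.09 and 1.42 after HP1a RNAi, and 2.23 and 2.26 after Su(var)3-9 RNAi. It rose by 1.97 ± 0.20 (SE) in Su(var)3-9 RNAi (limma adjusted p = 0.00342), and the HP1a RNAi values lay between the controls and Su(var)3-9 RNAi. The same peak bin with chr2L:22856057-22866057, beside cta and 470 kb away, had 0.21, 0.12 and 0.20 in WT, −0.31 and −0.35 after mock RNAi, 0.36 and 0.35 after HP1a RNAi, and 1.38 and 1.15 after Su(var)3-9 RNAi. It rose by 1.59 ± 0.17 (SE, limma adjusted p = 0.00342). The pair chr2L:22046057-22056057 with chr2L:22406057-22416057 rose by 1.60 ± 0.21 (SE, limma adjusted p = 0.00403).

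The pairs that fell most clearly in Su(var)3-9 RNAi joined the bins past CG17490 to those before light. The pair chr2L:22496057-22506057 with the bin starting at chr2L:22786057 had −0.081, 0.057 and −0.041 in WT, −0.19 and −0.28 after mock RNAi, −0.82 and −0.79 after HP1a RNAi, and −1.81 and −1.71 after Su(var)3-9 RNAi. It fell by 1.53 on the log2 scale (SE 0.17, limma adjusted p = 0.00342). The pair chr2L:22506057-22516057 with chr2L:22716057-22726057 fell by 1.78 (SE 0.23, limma adjusted p = 0.00397), from 0.17 and 0.74 after mock RNAi to −1.36 and −1.29. The pair chr2L:22466057-22476057 with chr2L:22696057-22706057 fell by 1.53 (SE 0.19, limma adjusted p = 0.00385), from 0.23 and 0.32 to −1.33 and −1.17. All 3 pairs were close to or above their arm median in the WT libraries.

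In HP1a RNAi the higher pairs with the smallest p shared the WT peak bin or its neighbour. The pair chr2L:22186057-22196057 with chr2L:22526057-22536057 had −0.38 and −0.61 after mock RNAi and 0.87 and 1.55 after HP1a RNAi, a rise of 1.70 ± 0.24 (SE, limma adjusted p = 0.0301). The WT libraries, at 0.34, 0.41 and 0.60, lay between the values of mock and HP1a RNAi, and those after Su(var)3-9 RNAi were 1.10 and 1.09. The pair chr2L:22006057-22016057 with chr2L:22536057-22546057, 530 kb apart, rose by 1.23 ± 0.21 (SE, limma adjusted p = 0.0443), from 0.016 and −0.28 to 1.18 and 1.00. The pair chr2L:22136057-22146057 with chr2L:22526057-22536057 differed by 1.38 ± 0.25 (SE, limma adjusted p = 0.0575) and did not pass.

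The pair that fell in HP1a RNAi joined chr2L:22516057-22526057 with the bin starting at chr2L:22786057, 270 kb apart. It had 0.81, 0.73 and 0.82 in WT, 0.81 and 0.83 after mock RNAi, −0.68 and −0.42 after HP1a RNAi, and −1.09 and −0.67 after Su(var)3-9 RNAi. The 5 controls were nearly equal and all 4 depleted libraries lay below the arm median. The pair fell by 1.37 on the log2 scale (SE 0.20, limma adjusted p = 0.0339). The next lower pairs, of the bin starting at chr2L:22786057 with chr2L:22166057-22176057 in Clamp and with chr2L:22236057-22246057, differed by −0.996 and −0.99 (limma adjusted p = 0.0628 and 0.0695) and did not pass. None of the 12 pairs named here passed on deposited scores, where the limma adjusted p ran from 0.0604 to 0.705. In all of these fits the depletions share the mock RNAi libraries.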

How the data were processed

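Per the labels and the study's methods, 5C libraries of S2 cells were sequenced, reads with the EcoRI site were mapped with Bowtie2 to the primer pairs, and my5C binned the contacts at 10 kb (5 kb on chrX) in dm3 with median smoothing. The authors deposited 1 log2 observed over expected score for each bin pair of an arm. No counts are given, so no depth or counting interval could be computed.

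Scores of 0 were treated as missing, and both entries of a pair were averaged. Each library gave a median, a centred median (minus its chr2L median), a percent of positive scores and a long-range minus short-range median. Groups were compared on these values with exact permutation tests, two-sided, with Benjamini-Hochberg adjustment over 4 comparisons. limma was fitted on all 23426 bin pairs scored in 9 libraries, with 4 groups and Benjamini-Hochberg adjustment, after tests on simulated data. In the fits of centred scores every arm was centred.

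The pairs named are the 3 with the smallest limma p in each direction and depletion on centred scores, both libraries beyond both mock RNAi libraries, and the 4 highest and 2 lowest in WT. The bins named are the highest, lowest and most different, and pairs or bins within 30 kb were taken once. Further bins and segment pairs were chosen after their values were seen. The members and lists were chosen with earlier results of these data known. Genes were placed by dm3 positions in the study's supplement, and gene order came from RefSeq Release 6. The positions came only from its list of genes changed by knockdown of dMES-4, a histone methyltransferase. A bin where no gene was placed can therefore still hold genes. Alternatives covered missing scores, distance, bins, scaling, the libraries fitted and each library left out. The labels do not state whether replicate numbers pair the RNAi libraries, and the main comparisons treated them as unpaired. Python 3.11.15, numpy 2.4.6, scipy 1.17.1, pandas 2.3.3, matplotlib 3.10.9, R 4.3.3 and limma 3.58.1 were used.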

Additional observations from a re-analysis of the deposited data

Results flagged for a closer look

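With limma on centred scores, 54 of 2545 pairs passed between the HP1a RNAi libraries and those of Su(var)3-9 RNAi, 9 higher and 45 lower in HP1a RNAi, or 2.12% of the pairs tested, against 2.4% of all pairs. In 2 of 36 pairs of 100 kb segments, both libraries of one depletion moved away from both mock RNAi libraries and those of the other moved the opposite way, where 3.61% of the segment pairs of all arms did so, and this difference was not tested. Between segments 1 and 8, HP1a RNAi minus mock RNAi was −0.146 and Su(var)3-9 RNAi minus mock RNAi was 0.407. Between segments 4 and 10 these differences were −0.121 and 0.268. In both segment pairs HP1a RNAi overlapped the WT libraries. For segments 1 and 8 it had −0.37 and −0.20, against −0.14, −0.27 and −0.35 in WT. For segments 4 and 10 it had −0.014 and −0.12, against −0.12, 0.013 and −0.20 in WT.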

How the results depend on the processing

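Over the medians and shares of each library, 111 of 116 values under other settings and 76 of 88 with 1 library left out kept their direction and side of an unadjusted p of 0.05, the threshold in this paragraph. The differences that turned direction were those of the median in Su(var)3-9 RNAi against mock RNAi, 0.40 without Su(var)3-9 RNAi replicate 2 (range −1.58 to 0.40 with 1 library left out), the median of both depletions against the controls, 0.12 without that library (−0.60 to 0.12), and the percent positive in Su(var)3-9 RNAi, −1.34 without replicate 1 (−1.34 to 21.3). The near-zero contrast between mock RNAi and WT in the long-range minus short-range median also turned, to 0.0099 with the left-out bins kept, 0.011 divided by the SD of chr2L, a setting added after the data were seen, 0.020 without mock RNAi replicate 2 and 0.013 without WT replicate 1 (−0.027 to 0.020). The centred median of both depletions against the controls was 0.074 to 0.098 with 1 library left out, and its unadjusted p was above 0.05 in 7 of 9 cases. With the left-out bins kept it was 0.048, with 0.043 for HP1a RNAi and 0.084 for Su(var)3-9 RNAi against mock RNAi, and with zeros kept HP1a RNAi had 0.050. The median of HP1a RNAi against mock RNAi was 0.26 to 0.57 with 1 library left out. The percent positive of both depletions with centred scores was 10.1 (unadjusted exact permutation p = 0.0159). Of the bins above or below all controls, on deposited scores 5 remained below in Su(var)3-9 RNAi and 0 in each other class, and the HP1a RNAi count below was 15 to 23 with 1 library left out.

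The limma counts moved most, and the cause was not tested. Fitting only the groups compared gave 94 calls for HP1a RNAi and 0 for Su(var)3-9 RNAi on deposited scores, and 0 and 55 on centred scores. With zeros kept as values, both depletions had 0 on deposited scores, and HP1a RNAi 2 and Su(var)3-9 RNAi 353 on centred scores. A trend in the prior variance gave 0 for both depletions on deposited and 3 for HP1a RNAi on centred scores, and pairs with at least 2 WT values gave 8 for HP1a RNAi on centred scores. Quantile normalization gave 0, 0 and 22 for HP1a RNAi, Su(var)3-9 RNAi and both. With 1 library left out the counts were 0 to 83, 0 to 2057 and 0 to 1631 on deposited scores, and 0 to 66, 36 to 622 and 192 to 722 on centred scores.

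Whether replicate numbers pair the RNAi libraries is not stated. Same-numbered deviations correlated at 0.054 for mock and HP1a RNAi, −0.14 for mock and Su(var)3-9 RNAi and 0.16 for the depletions. With 2 libraries per group these values cannot settle it. With the replicate block, on the RNAi libraries, the centred median of both depletions was 0.11 and the long-range minus short-range median 0.18 (exact permutation p = 0.5 for each, the smallest possible there). The block gave limma counts of 0 for Su(var)3-9 RNAi and 0 for both on deposited scores, and 0, 112 and 0 on centred scores. The RNAi libraries without the block, added after the data were seen, gave 0 and 0, and 0, 228 and 38. Crossed numbers, also added, gave 36 on deposited and 0 on centred scores for Su(var)3-9 RNAi. Depth is unknown from the scores, with 2 libraries per depletion, so small differences of single pairs were not detectable.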
